A study of Mus musculus with 21 samples.

Results

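The 10 receptors described here belong to the C-type lectin and Siglec families and were measured in microglia, the resident macrophages of the brain, with and without apolipoprotein E (ApoE) and after recombinant APOE protein (rAPOE) was injected. They are Clec7a, Clec5a, Clec4a1, Clec4a2, Clec4a3 and BC035044, which are C-type lectin or lectin-like genes, and Siglech, Cd33, Siglece and Cd22, which are Siglecs. The members were chosen by gene name, and all 10 are listed in both tables, among 18079 genes of the genotype table and 13297 of the injection table. The genotype table compares 7 libraries labelled as wild-type C57BL/6 females with 4 from females of the ApoE knockout strain B6.129P2-Apoetm1Unc/J, none of them injected. The injection table compares libraries labelled as knockout males of the same strain, 5 injected with PBS and 5 with rAPOE in PBS. All 10 come from the knockout strain, so its controls carry the disrupted Apoe gene too. Mice were 12 to 18 weeks old, and the injected ones were killed 16 h after the protein or buffer went into the left hemisphere. Neither the hemisphere behind an injected library nor whether replicate libraries were different animals is stated, so a p-value reflects only how much these samples vary, some of which may be technical.

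C-type lectin receptors are membrane proteins with a carbohydrate-recognition fold, and several of them bind sugars of microbes or of dying cells. Siglecs bind sialic acid, the sugar that caps many chains on the surface of the body's own cells. Members of both families signal either through activating motifs, in their own tail or in a partner adaptor such as DAP12 (gene Tyrobp), which recruit the kinase Syk, or through inhibitory motifs that recruit phosphatases such as SHP-1 (gene Ptpn6). In microglia they are known as regulators of phagocytosis and inflammatory activation, and Clec7a is widely used as a marker of the disease-associated state.

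The libraries are 3′ tags, read at the end of each transcript, and a value is a normalised count, the read count of a gene divided by a factor of its library. Levels are therefore not compared between the 2 tables. Recovered reads came to 2016972 to 3054976 in wild-type, 4247865 to 4969287 in knockout, 704225 to 1347501 in PBS and 857059 to 1119059 in rAPOE libraries, so depth and genotype cannot be told apart. Despite more reads, the knockout libraries held 8117 to 10479 detected genes against 13592 to 15248 in the wild type, and the part of this in receptor values at or near 0 in the knockout (Cd22, Clec4a1, Siglece) was not tested. Apoe lay at 13195 to 17163 in 6 wild-type libraries, at 1011 in number 8, at 0 to 23.1 in the knockout libraries, and at 0 to 8.54 in all 10 injected ones. Wild-type libraries other than 8 held 11 to 36 reads of 4 Y-linked genes although labelled female, while wild-type library 8 and the knockout females held 0. Xist was 1127 to 1279 in those 6 wild-type libraries, 3291 in library 8 and 1980 to 3292 in the knockout ones. Sex-linked reads thus differed by genotype except in library 8, and their part in the receptor differences was not tested. PBS library 5 and rAPOE library 5, labelled male, also held 0 Y-linked reads and had Xist at 979 and 718. Wild-type library 8 lay outside the range of the other 6 for 67.6% of the 10401 genes tested and for 7 of the 10 receptors, so receptor results are given with and without it, and counts of the related gene lists also without it where they differ.

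The promoters of the 5 receptors with the largest passing differences, 3 by genotype and 2 by injection, are shown because they are the control regions nearest to the changes. Each line gives the 250 bases before the RefSeq start site, 5′ to 3′ on the gene's strand (GRCm38.p6). Capitals mark GAGGAA, the core that PU.1 (the master transcription factor of macrophages) is known to bind, or its reverse complement, and in Siglech the letters TTCNNNGAA, the gamma-interferon activated site. The stretches lie at chr6:129472780-129473029 (minus strand), chr6:128891125-128891374 (minus), chr7:43533172-43533421 (minus), chr6:122921598-122921847 (plus) and chr7:55767934-55768183 (plus).
Clec7a: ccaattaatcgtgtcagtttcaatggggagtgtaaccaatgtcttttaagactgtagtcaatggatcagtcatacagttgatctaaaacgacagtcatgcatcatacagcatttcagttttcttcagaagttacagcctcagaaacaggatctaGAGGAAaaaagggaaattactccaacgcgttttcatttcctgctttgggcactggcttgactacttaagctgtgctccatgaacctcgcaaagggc
BC035044: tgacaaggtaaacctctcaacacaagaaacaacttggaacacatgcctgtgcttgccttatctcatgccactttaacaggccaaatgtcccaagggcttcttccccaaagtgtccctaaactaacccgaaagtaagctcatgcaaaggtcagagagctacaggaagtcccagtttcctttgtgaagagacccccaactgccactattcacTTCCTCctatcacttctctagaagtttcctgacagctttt
Cd33: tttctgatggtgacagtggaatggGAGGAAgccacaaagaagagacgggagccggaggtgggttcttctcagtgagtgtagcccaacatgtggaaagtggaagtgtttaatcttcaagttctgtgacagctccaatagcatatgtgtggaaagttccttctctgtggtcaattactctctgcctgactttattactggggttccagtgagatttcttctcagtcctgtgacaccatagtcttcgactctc
Clec4a1: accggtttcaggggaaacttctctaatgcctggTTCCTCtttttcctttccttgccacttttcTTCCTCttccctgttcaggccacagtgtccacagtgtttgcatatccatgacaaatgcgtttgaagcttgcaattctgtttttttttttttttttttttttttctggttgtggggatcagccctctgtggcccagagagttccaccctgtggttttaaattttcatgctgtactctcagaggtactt
Siglech: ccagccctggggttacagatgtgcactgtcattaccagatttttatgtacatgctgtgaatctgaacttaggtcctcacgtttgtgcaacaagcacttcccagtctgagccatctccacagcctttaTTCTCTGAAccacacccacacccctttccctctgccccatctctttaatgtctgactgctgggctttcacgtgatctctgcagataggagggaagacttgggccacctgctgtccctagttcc
The RefSeq start of Cd33 lies inside the longer gene of GENCODE. In windows of 250 bases before to 50 after the start, with both strands searched, GAGGAA occurred in 28.3% of 32851 promoter windows. The 10 receptors have 12 such windows, of which 9 held it. By gene, 8 of the 10 had it in at least 1 window, the exceptions being Clec4a2 and Cd22. In Clec7a it began 96 bases before the start, in BC035044 40, in Cd33 226, in Clec4a1 217 and 187, and in Siglech 4, where it spans the start and is not in capitals. TTCNNNGAA occurred in 8.3% of promoters and in those of Siglech (123 bases before the start) and Clec4a2 (42 bases before), and GAAANNGAA, the core of the interferon-stimulated element, in 8.56% of promoters and in no receptor. These are matches of letters, and no binding was measured.

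The lectin genes lie on chromosome 6 and the Siglecs on chromosome 7 (GRCm38, GENCODE M21). Clec4a1 (122921848 to 122934619), Clec4a3 (122952515 to 122969875) and Clec4a2 (123106428 to 123143999) lie near one another on the plus strand and are close paralogs. How tags shared by paralogs were counted is not stated, so the split among these 3, and between them and any other paralog, is uncertain. Clec7a (129461591 to 129472779) and BC035044 (128849090 to 128891126) lie on the minus strand in the same arm, and GENCODE lists Clec7a as a polymorphic pseudogene. BC035044 overlaps 3 genes of GENCODE, Gm44078 on the same strand, and Gm8774, a processed pseudogene, and Clec2i on the opposite strand. Clec2i held 9 reads in the whole genotype table and 12 in the injection table. How tags in these overlaps were counted is not stated, and their part in the BC035044 values was not tested. Cd33 (43524216 to 43544428) and Siglece (43651070 to 43660161) lie near each other on the minus strand of chromosome 7. Cd22 lies at 30865402 to 30880342 (minus), Siglech at 55768178 to 55778925 (plus), and Clec5a at 40574894 to 40585821 of chromosome 6 (minus).

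The first comparison asks how these receptors differ between microglia with and without ApoE. In the knockout, BC035044, Cd33, Clec4a3 and Clec4a2 rose, by 4.71-fold, 2.27-fold, 2.33-fold and 1.83-fold. Clec7a fell to 26.1 from 545, while Clec5a, Siglech, Siglece, Clec4a1 and Cd22 did not pass. All 10 receptors were tested, and 4 passed higher and 1 lower at an adjusted p under 0.05 (limma, Benjamini-Hochberg over all genes tested). Over all genes tested, 5.14% passed higher and 19.8% lower. The median log2 difference was 0.05 over the receptors and −0.45 over all genes. Without wild-type library 8, 4 receptors passed higher and 2 lower, beside 7.64% and 23% of all genes. In bulk RNA, fewer cells of a type and less RNA per cell cannot be told apart.

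**Figure D1:**
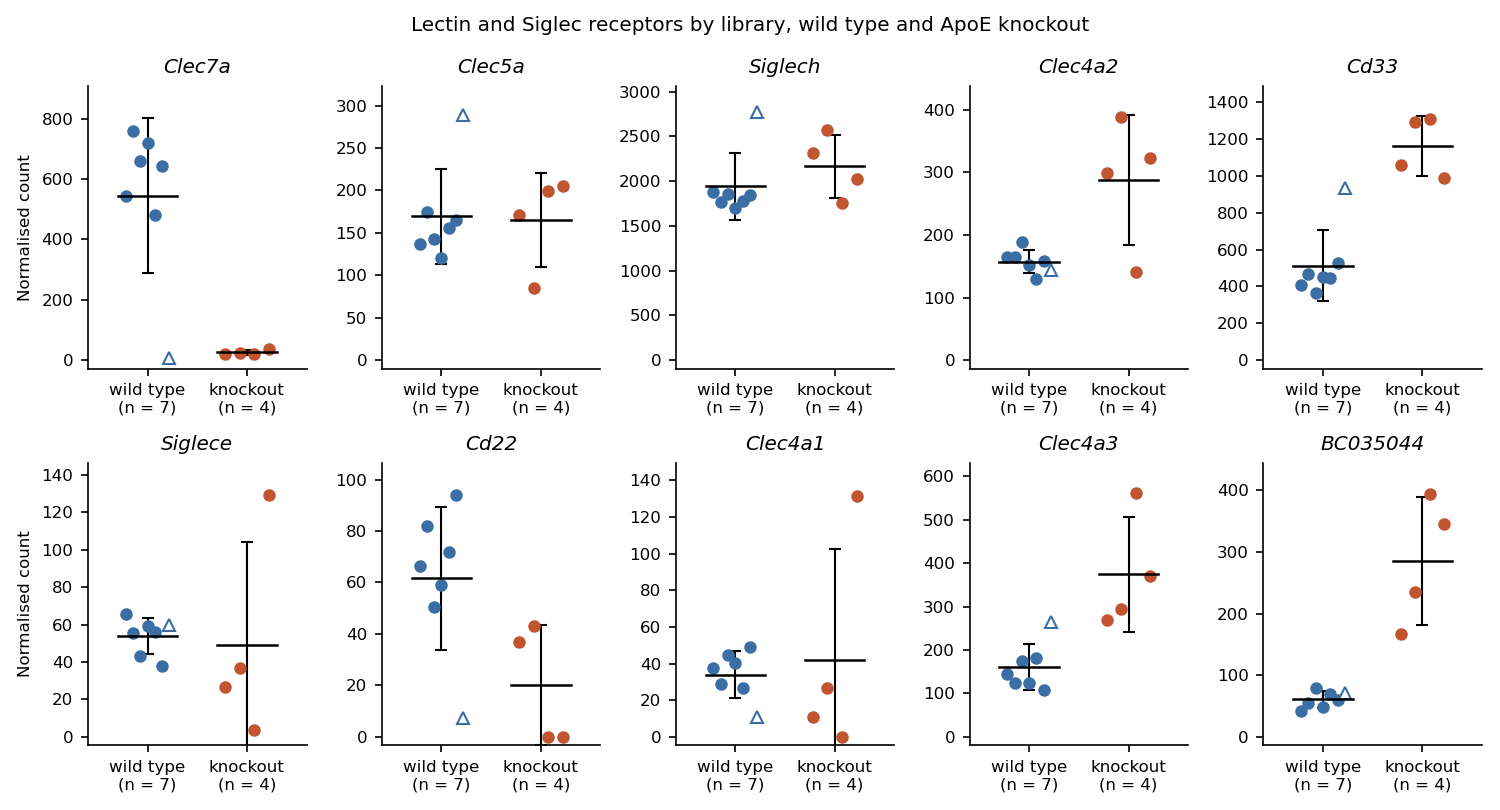
Normalised count of each receptor in each wild-type (n = 7) and knockout (n = 4) library. Bars give the mean and error bars the SD, cut off at the lower edge of the panel, and the open triangle is wild-type library 8. The knockout libraries lie above every wild-type library for Cd33, Clec4a3 and BC035044, and Clec7a is high in 6 wild-type libraries but at 7.22 in library 8.

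Among the activating receptors, Clec7a encodes Dectin-1, the receptor for fungal beta-glucans, which carries its own activating motif and signals through Syk. Its normalised count had a lowest value of 7.22, a median of 644 and a highest value of 760 in the wild-type libraries. In the knockout libraries it was 21.6, 25.4, 20.7 and 36.8. The lowest wild-type value is library 8, with 4 reads, which lay below all knockout libraries, while the other 6 wild-type libraries (482 to 760) lay above them. Clec7a fell by 3.68 log2 units (SE 0.99, limma adjusted p = 0.0139). Without library 8 it fell by 4.57 (SE 0.19, limma adjusted p = 2.60e-08), a 24.3-fold lower mean. The wild-type libraries thus did not share one level of Clec7a.

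Library 8 was low not only in Clec7a. Monocyte markers summed to 139 there, to 1844 to 2159 in the 6 others and to 3.46 to 300 in the knockout libraries. Serosal macrophage markers, such as Saa3, an acute-phase protein, summed to 3.61, to 2318 to 3110 and to 0 to 14.2 in the same order. Of the 14 monocyte markers 8 passed lower in the knockout and 3 were at 0 in all of its libraries, and of the 7 serosal markers 6 passed lower and 4 were at 0. Markers of the disease-associated state summed to 17141 in library 8, 50419 to 59006 in the 6 others and 28964 to 32594 in the knockout libraries, with 9 of 16 passing lower and 0 higher (0 higher in edgeR and DESeq2, and 1 at an unadjusted limma p under 0.05). Without library 8, 14 of the 16 passed lower and 1 higher, Cd9, a tetraspanin (0.34, SE 0.11, limma adjusted p = 0.0270), while 9 monocyte and 7 of 7 serosal markers passed lower. Ctsd, a lysosomal protease, made up much of the disease-associated sum and averaged 33288 in wild-type and 20438 in knockout libraries. Trem2, a receptor in that list, was at 16.2 in library 8, with a wild-type median of 2280. Trem2 was 2089 to 2731 in the knockout libraries, so library 8 lay far below them in this marker. The part of these cell markers in the difference of Clec7a was not tested.

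Clec5a encodes a lectin that pairs with DAP12 and activates myeloid cells. Its normalised count had a lowest value of 120, a median of 156 and a highest value of 289 in wild-type libraries, and was 171, 85.1, 200 and 205 in the knockout ones. The highest value is again library 8, and the groups overlap. Its log2 difference was −0.06 (SE 0.28, limma adjusted p = 0.892), and 0.08 without library 8.

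Siglech, which also pairs with DAP12 and is abundant in microglia and in plasmacytoid dendritic cells, had a lowest value of 1699, a median of 1848 and a highest of 2775 in wild-type libraries. In the knockout libraries it was 2319, 2566, 1758 and 2028. These lay inside the range of all wild-type libraries, whose top is library 8, while the other 6 spanned 1699 to 1880. Siglech differed by 0.16 log2 units (SE 0.15, limma adjusted p = 0.463). It was 0.25 (SE 0.09, limma adjusted p = 0.0648) without library 8, which held the highest value, and −0.28 (SE 0.13, limma adjusted p = 0.101) when values were scaled to the summed microglia markers. That sum was 66597 to 70706 in 6 wild-type libraries, 89103 in library 8 and 90849 to 106827 in the knockout ones, so the sum was higher in every knockout library than in any wild-type one. The plasmacytoid dendritic cell markers summed to 875 to 1641 in wild-type and 879 to 1218 in knockout libraries. Most of that sum was Tcf4, a transcription factor, which averaged 833 in wild-type and 1071 in knockout libraries. Of the 5 markers tested 3 passed lower in limma and 1 in edgeR, with a median of −2.16, so the sum does not stand for each marker.

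Cd33 encodes the mouse counterpart of human CD33, a Siglec of myeloid cells studied in Alzheimer's disease. Its normalised count had a lowest value of 365, a median of 449 and a highest value of 932 in the wild-type libraries. It was 1059, 1294, 1310 and 990 in the knockout libraries. Every knockout library lay above every wild-type library, and library 8, at 932, was the wild-type library nearest to them. Cd33 averaged 513 ± 191 (SD, n = 7) in the wild type and 1164 ± 163 (SD, n = 4) in the knockout, and rose by 1.23 log2 units (SE 0.21, limma adjusted p = 7.70e-04), and by 1.39 without library 8. Groups that did not overlap were found for 3 of the 10 receptors, Cd33, Clec4a3 and BC035044, and for 14.3% of all genes tested.

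Clec4a2 encodes DCIR, a lectin with an inhibitory motif. Its normalised count had a lowest value of 129, a median of 159 and a highest value of 189 in wild-type libraries. In the knockout libraries it was 300, 388, 142 and 323, so 3 lay above all wild-type libraries and library 3 lay within them. It rose by 0.78 (SE 0.24, limma adjusted p = 0.0297). The call was lost when knockout library 1, 2 or 4 or wild-type library 4, 6 or 7 was left out (highest limma adjusted p = 0.0958, without knockout library 2). Scaled to microglia markers, the difference was 0.34 (SE 0.25, limma adjusted p = 0.298).

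Clec4a3 and Clec4a1 are the paralogs of Clec4a2. Clec4a3 had a lowest value of 107, a median of 145 and a highest value of 265 in wild-type libraries and was 270, 294, 562 and 370 in the knockout ones. The groups did not overlap, although library 8 (265) lay only just below the lowest knockout library (270). Clec4a3 rose by 1.22 (SE 0.26, limma adjusted p = 0.00398) and by 1.35 without library 8. Knockout library 3 held the highest Clec4a3 and the lowest Clec4a2 of the group.

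Clec4a1 had a lowest value of 10.8 (library 8), a median of 37.7 and a highest value of 49.0 in wild-type libraries. In the knockout libraries it was 10.8, 26.7, 0 and 131. Knockout library 4 held 296 reads and library 3 none, where a count of 0 allows up to 1.30, so the spread within the knockout (SD 60.4) exceeded the difference between the group means (34.0 and 42.2). Clec4a1 differed by −1.16 log2 units (SE 0.99, limma adjusted p = 0.414).

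Siglece encodes an inhibitory Siglec of mouse myeloid cells. It had a lowest value of 37.8, a median of 56.2 and a highest value of 65.4 in wild-type libraries, against 26.7, 36.5, 3.46 and 129 in the knockout ones. As for Clec4a1, knockout library 4 was the highest and library 3 the lowest of all libraries, on either side of the wild-type range. Siglece differed by −0.96 log2 units (SE 0.67, limma adjusted p = 0.318).

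Cd22 encodes an inhibitory Siglec best known from B cells that restrains phagocytosis in microglia. It had a lowest value of 7.22 (library 8), a median of 66.2 and a highest value of 93.9 in wild-type libraries. In the knockout libraries it was 36.9, 43.2, 0 and 0, and the zeros allow up to 1.30 and 1.33. The knockout values all lay below the 6 other wild-type libraries (50.4 to 93.9) but not below library 8. The log2 difference was −3.01 (SE 1.10, limma adjusted p = 0.0590), and −3.46 (SE 1.07, limma adjusted p = 0.0286) without library 8. Without knockout library 1 or 2, in which Cd22 was detected, it was −3.87 (limma adjusted p = 0.0231) and −3.94 (limma adjusted p = 0.0184), and edgeR on the recovered reads gave −1.59 (adjusted p = 0.405). Over all 11 fits that left out 1 library it lay between −3.94 and −2.12, and 3 passed (limma adjusted p up to 0.172). B cell markers summed to 554 to 1003 in wild-type and 655 to 893 in knockout libraries, and 6 of 10 were at 0 in every knockout library. Their part in the Cd22 values was not tested.

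BC035044 is a lectin-like gene of the chromosome 6 cluster. Its normalised count had a lowest value of 42.3, a median of 60.2 and a highest value of 79.3 in wild-type libraries. In the knockout libraries it was 167, 235, 395 and 345, and every one lay above all wild-type libraries, library 8 (70.4) included. It averaged 60.6 ± 13.1 (SD, n = 7) in the wild type and 286 ± 103 (SD, n = 4) in the knockout, and rose by 2.17 log2 units (SE 0.28, limma adjusted p = 6.41e-05). Over 21 alternatives its difference lay between 1.73 and 2.40, all past the threshold. Among receptors whose libraries did not overlap, BC035044 had the largest log2 difference by genotype.

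**Figure D2:**
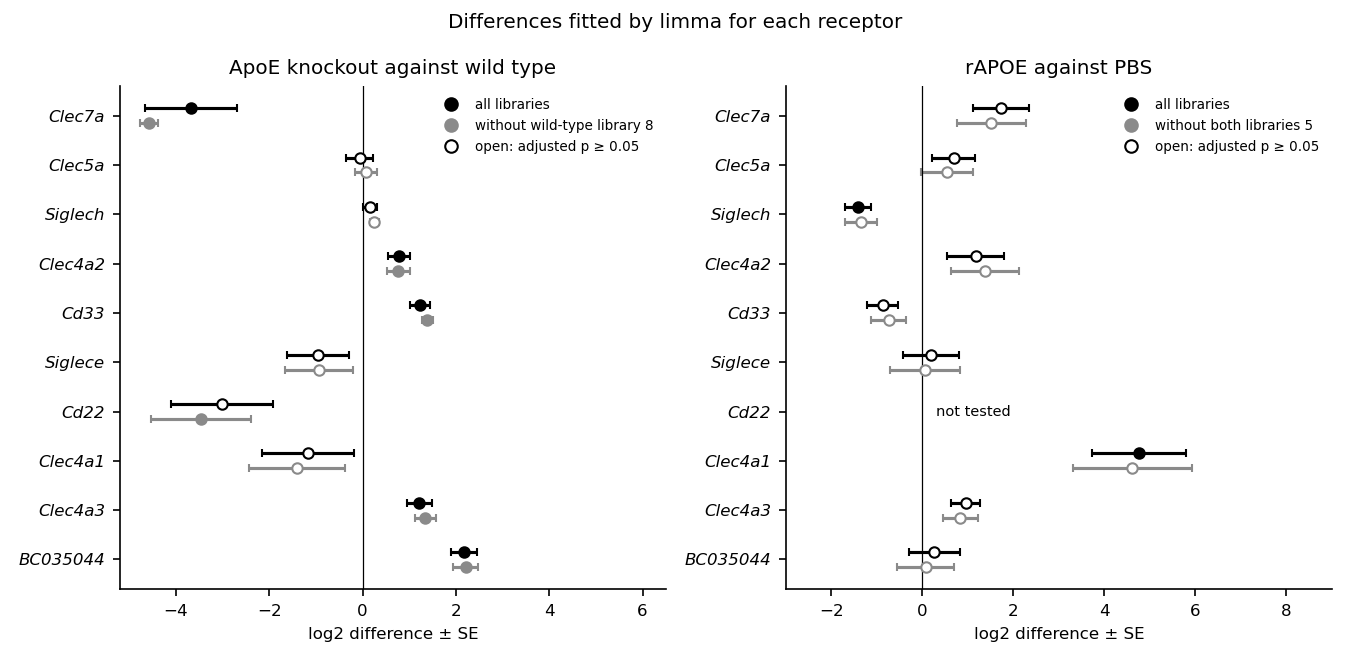
Fitted log2 differences with their standard errors, knockout minus wild type on the left and rAPOE minus PBS on the right. Black points use all libraries and grey points leave out wild-type library 8 or both libraries numbered 5, and filled points have an adjusted p under 0.05. The difference of Clec7a moves from −3.68 to −4.57 without library 8, and no receptor passes on the right without both libraries 5.

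The signalling partners of these receptors were followed as a list of 25 adaptors and kinases, of which 23 were tested. In the knockout 7 passed higher and 0 lower, with a median of 0.27 beside −0.45 over all genes (0 lower in edgeR and DESeq2 too, and 1 lower at an unadjusted limma p under 0.05). Without library 8, 8 passed higher and 1 lower, the Src-family kinase Fgr (−2.51, SE 0.76, limma adjusted p = 0.0255). Lyn, a Src-family kinase that phosphorylates both kinds of motif, rose by 0.97 (SE 0.13, limma adjusted p = 8.92e-05). Fcer1g, the Fc receptor gamma chain, an adaptor with an activating motif, rose by 0.91 (SE 0.13), Lcp2, a scaffold below Syk, by 0.68 (SE 0.17), and Grb2, an adaptor, by 0.64 (SE 0.13). The last 2 did not pass when scaled to microglia markers (limma adjusted p = 0.329 for Lcp2 and 0.403 for Grb2). Tyrobp and Syk, given for their role beside the receptors with their values already seen, had log2 differences of 0.22 (SE 0.20, limma adjusted p = 0.446) and −0.05 (SE 0.29, limma adjusted p = 0.919).

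On the inhibitory side, 7 genes that dampen receptor signals were all tested, and 2 passed higher and 0 lower, with a median of 0.61 (0 lower in edgeR and DESeq2, and 1 lower at an unadjusted limma p under 0.05). Without library 8, 3 passed higher and 0 lower. Inpp5d, the lipid phosphatase SHIP1, rose by 0.96 (SE 0.18, limma adjusted p = 0.00165), and Csk, which switches off Src-family kinases, by 0.75 (SE 0.16, limma adjusted p = 0.00411). Csk did not pass when scaled to microglia markers (limma adjusted p = 0.238). Ptpn6 and Ptpn11, the phosphatases SHP-1 and SHP-2, also named with their values seen, had differences of −0.34 (SE 0.18, limma adjusted p = 0.172) and −1.22 (SE 0.52, limma adjusted p = 0.101).

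**Figure D3:**
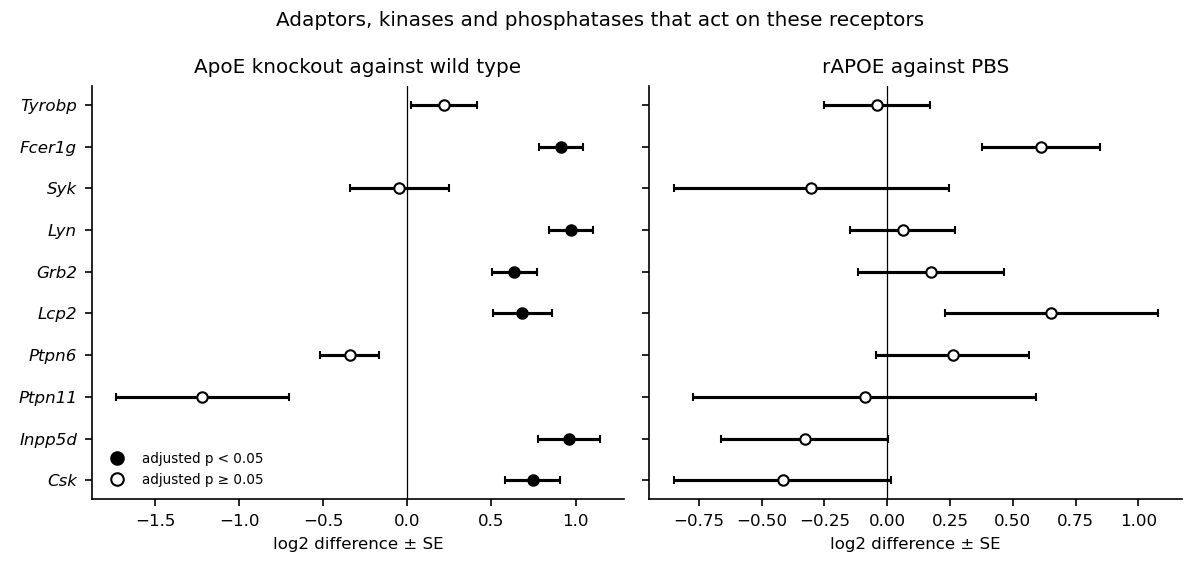
Fitted log2 differences with standard errors for 10 adaptors, kinases and phosphatases, knockout minus wild type on the left and rAPOE minus PBS on the right. Filled points have an adjusted p under 0.05. Lyn, Fcer1g, Inpp5d, Csk, Lcp2 and Grb2 are filled on the left and no gene is on the right.

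Of 37 other C-type lectin receptors 10 were tested, and 4 passed lower in the knockout and 0 higher, with a median of −1.73 (0 higher in edgeR, in DESeq2 and at an unadjusted limma p under 0.05). Without library 8, 5 passed lower and 0 higher. Among them were Mgl2, a galactose-binding lectin of macrophages, which fell by 4.59 (SE 0.61), Cd93, by 4.28 (SE 0.77), and Clec4d, a receptor of the Dectin-2 group. Clec4d lay at 0 to 85.7 in wild-type libraries and at 0 reads in all 4 knockout ones, an at least 176-fold lower mean at 3 reads over the group. Of 5 other Siglecs 3 were tested, and 0 passed in limma in either direction (median −1.51), with 2 lower at an unadjusted p under 0.05, 0 in edgeR and 1 lower in DESeq2. Without library 8, 1 passed lower in limma, Mag, a Siglec of myelin-forming cells (−1.07, SE 0.37, limma adjusted p = 0.0441). Cd9, Trem2, Fgr and Mag are named with their values already seen.

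The second comparison asks how these receptors respond to ApoE protein given to a brain that lacks it. Clec4a1 rose after rAPOE, to 59.0 from 3.27, and Siglech fell to 154 from 394. Clec7a had a 3.41-fold higher mean with no overlap between the groups but did not pass. Of the 10 receptors 9 were tested, since Cd22 fell below the filter on low values, and 1 passed higher and 1 lower. Over all 7066 genes tested, 0.368% passed higher and 0.113% lower. The median log2 difference was 0.69 over the 9 receptors and −0.01 over all genes. Both calls were lost without the 2 libraries numbered 5, where 0.142% of all genes passed higher and 0.0142% lower.

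**Figure D4:**
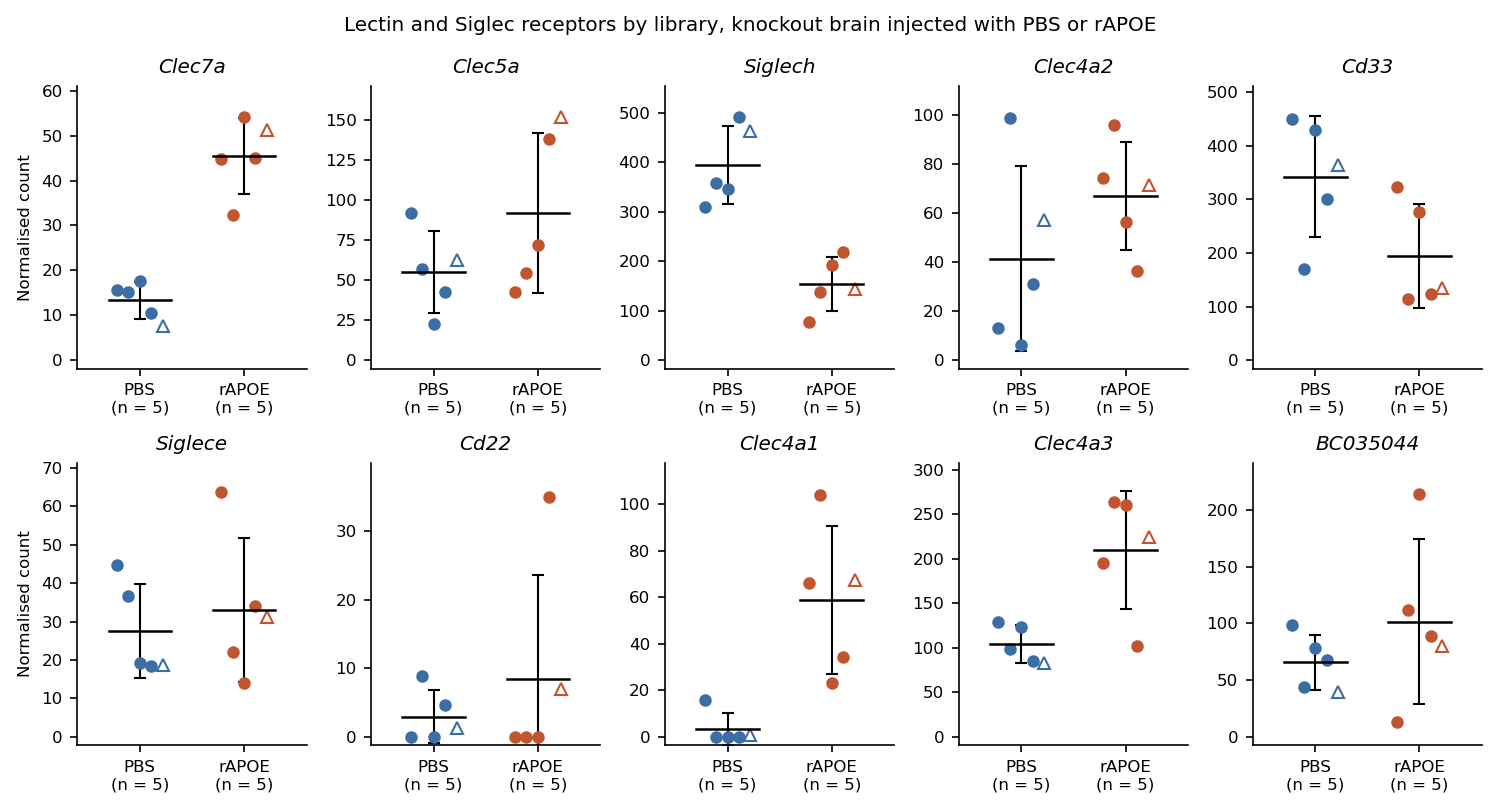
Normalised count of each receptor in each PBS (n = 5) and rAPOE (n = 5) library of knockout mice. Bars give the mean and error bars the SD, cut off at the lower edge of the panel, and the open triangles are the libraries numbered 5. The groups do not overlap for Clec7a and Clec4a1, higher after rAPOE, and for Siglech, lower after rAPOE.

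Siglech was 310, 359, 346, 493 and 463 in the PBS libraries. It was 77.8, 138, 192, 218 and 144 in the rAPOE libraries, each of them below all PBS libraries. It averaged 394 ± 79.1 (SD, n = 5) after PBS and 154 ± 54.1 (SD, n = 5) after rAPOE, and fell by 1.41 log2 units (SE 0.29, limma adjusted p = 0.0261). The call was lost without PBS library 3, 4 or 5 or rAPOE library 1, 2 or 5 (limma adjusted p up to 0.0819) and without both libraries 5 (0.180). The edgeR adjusted p on the recovered reads was 0.0552. Microglia markers moved the same way, with sums of 25906 to 30994 after PBS and 12269 to 27827 after rAPOE. Of the 14 markers 3 passed lower in limma, 1 in edgeR and 5 in DESeq2, and 0 without both libraries 5 (limma; 11 lower at an unadjusted p under 0.05 with all libraries). Scaled to that sum, the difference of Siglech was −0.72 (SE 0.35, limma adjusted p = 0.253).

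Clec4a1 was 15.7, 0, 0, 0 and 0.64 in the PBS libraries, from 19, 0, 0, 0 and 1 reads. The 3 zeros allow up to 3.79, 4.80 and 1.98. It was 66.0, 104, 23.1, 34.1 and 67.6 in the rAPOE libraries, from 23 to 103 reads. Each rAPOE library lay above each PBS library, of which library 1 held nearly all the reads. Clec4a1 rose by 4.76 (SE 1.04, limma adjusted p = 0.0384). The call was lost without PBS library 3, 4 or 5 or rAPOE library 1, 2, 4 or 5 (limma adjusted p up to 0.181), without both libraries 5 (0.256) and in edgeR (0.149).

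Clec7a was 15.7, 15.2, 17.6, 10.5 and 7.72 after PBS, from 11 to 19 reads. It was 44.8, 32.3, 54.2, 45.0 and 51.3 after rAPOE, from 32 to 66 reads, and every rAPOE library lay above every PBS library. The log2 difference was 1.73 (SE 0.61, limma adjusted p = 0.280), while DESeq2 on the recovered reads gave 1.79 (adjusted p = 0.0482). Groups that did not overlap were found for 3 receptors, Clec7a, Clec4a1 and Siglech, and for 3.13% of all genes tested.

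Clec4a3 was 129, 98.6, 123, 85.0 and 83.0 after PBS and 196, 264, 261, 102 and 225 after rAPOE. Only rAPOE library 4 lay within the PBS range. Clec4a3 differed by 0.96 log2 units (SE 0.32, limma adjusted p = 0.240), and it was 1.65 (limma adjusted p = 0.0151) when scaled to microglia markers. That scaling also raised the median over all genes tested to 0.66 from −0.01. The paralog Clec4a2 was 13.2, 98.6, 6.40, 31.0 and 57.3 after PBS and 74.2, 95.8, 56.2, 36.5 and 71.5 after rAPOE. Its groups overlap fully, with PBS library 2 the highest of all, and the difference was 1.17 (SE 0.62, limma adjusted p = 0.497).

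Cd33 was 449, 169, 429, 301 and 363 after PBS and 323, 115, 276, 123 and 134 after rAPOE. In 3 rAPOE libraries it lay below all PBS libraries. Cd33 differed by −0.87 log2 units (SE 0.34, limma adjusted p = 0.330), and −0.18 when scaled to microglia markers.

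Clec5a was 91.8, 56.9, 22.4, 42.8 and 62.4 after PBS and 42.4, 54.5, 72.3, 138 and 152 after rAPOE, and only rAPOE libraries 4 and 5 lay above the PBS range. The difference was 0.69 (SE 0.47, limma adjusted p = 0.618). BC035044, which rose in the knockout, was 98.5, 44.2, 78.4, 67.8 and 39.3 after PBS and 12.96, 112, 214, 88.5 and 80.1 after rAPOE. The rAPOE libraries spread on both sides of the PBS range, and the difference was 0.26 (SE 0.56, limma adjusted p = 0.900). Siglece was 44.7, 36.7, 19.2, 18.4 and 18.7 after PBS and 63.6, 22.2, 14.1, 34.1 and 31.1 after rAPOE, again with overlap (0.19, SE 0.62, limma adjusted p = 0.945).

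Cd22 held 16 reads in all 5 PBS libraries and 54 in all 5 rAPOE libraries, of which 45 were in library 4. It was at 0 reads in PBS libraries 1 and 3 and in rAPOE libraries 1, 2 and 3, where a count of 0 allows 2.48 to 4.80. Of the rest, PBS libraries 2, 4 and 5 held 7, 7 and 2 reads and rAPOE library 5 held 9. Fitted with no filter on low values, the log2 difference was 0.24 (SE 1.16, limma adjusted p = 0.983).

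The injected libraries fall into 2 sets by detected genes, 7601 to 8837 in libraries 1 to 3 of both groups and 10025 to 11342 in libraries 4 and 5. Within libraries 1 to 3 the log2 difference was −1.40 for Siglech, 4.44 for Clec4a1 and 1.35 for Clec7a. Within libraries 4 and 5 it was −1.43, 5.26 and 2.29. The groups did not overlap in either set for these 3 receptors or for Clec4a3 (1.03 and 0.85). Of the other 6, Clec4a2 (1.77 and 0.27) overlapped in both sets, and 5 were separated in libraries 4 and 5 but overlapped in libraries 1 to 3. Of these Clec5a (0.16 and 1.47) and Cd33 (−0.55 and −1.35) had the same sign in both sets. Siglece (−0.21 and 0.78), Cd22 (−1.10 and 2.24) and BC035044 (−0.03 and 0.69) changed sign. With so few libraries in each set, groups separate easily, and the share of all genes that separated within a set was not computed. These counts are therefore not read as a result about the receptors. The difference between the sets was not tested.

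Other genes moved with rAPOE beside the receptors. Of 10 interferon response genes, 4 passed higher, with a median of 2.59, and their sum was 221 to 322 after PBS and 801 to 2554 after rAPOE. Saa3, the one serosal macrophage marker listed there, was at 0 to 1.26 after PBS and 66.2 to 386 after rAPOE and passed. Of 5 other C-type lectin receptors tested 1 passed, Cd72, an inhibitory lectin best known from B cells. Cd72 averaged 16.9 ± 9.07 (SD, n = 5) after PBS and 144 ± 75.5 (SD, n = 5) after rAPOE, and rose by 2.97 (SE 0.52, limma adjusted p = 0.00605), with no overlap. Its call was lost without rAPOE library 5 (0.0624) or both libraries 5 (0.114). B cell markers summed to 139 to 334 after PBS and 65.6 to 223 after rAPOE. Of 21 signalling genes, 7 inhibitors of receptor signals and 1 other Siglec, 0 passed in limma, edgeR or DESeq2 (medians −0.04, −0.09 and −0.04), and 2 signalling genes were higher and 1 lower at an unadjusted limma p under 0.05. The part of the interferon genes and of Saa3 in the receptors' differences was not tested.

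The fitted values of both comparisons stand side by side for Clec7a at −3.68 by genotype and 1.73 by injection, for Cd33 at 1.23 and −0.87, for Clec4a3 at 1.22 and 0.96, for Clec4a1 at −1.16 and 4.76, and for Siglech at 0.16 and −1.41. They come from libraries of different labelled sex, depth and handling. No receptor passed in both comparisons as reported. Clec7a passed in both, lower by genotype and higher by injection, in DESeq2 (adjusted p = 7.08e-08 and 0.0482) and with scaling to microglia markers (limma adjusted p = 0.00629 and 0.0461). Clec4a3 passed higher in both with that scaling (limma adjusted p = 0.0278 and 0.0151). The scaling was chosen after seeing the data and shifts all genes. By injection their median became 0.66 in place of −0.01, and 221 passed higher and 1 lower, against 26 and 8 as reported. By genotype the median became −0.90 in place of −0.45. The part of this shift in the scaled calls was not tested. The difference between the comparisons was not tested.

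The remaining marker lists were checked beside the receptors. In the genotype table all 14 microglia markers were tested and 9 passed higher and 1 lower (11 and 1 without library 8), and Cx3cr1, the fractalkine receptor, averaged 24254 in wild-type and 34316 in knockout libraries. Choroid plexus markers passed lower in 8 of 8 (sums of 23548 to 82769 and 433 to 826), neuron and glia markers in 9 of 11 tested (10 without library 8) and border macrophage markers in 2 of 8 (3 without it). Of 9 neutrophil markers 1 passed lower in limma, 0 in either direction in edgeR, and 1 higher in DESeq2 (1 higher and 1 lower at an unadjusted limma p under 0.05). Neutrophil markers summed to 359 in library 8, 2261 to 2965 in the 6 others and 1769 to 6349 in the knockout libraries. Plasmacytoid dendritic cell markers passed lower in 3 of 5 (4 lower and 1 higher without library 8, and 1 lower in edgeR) and NK and T cell markers in 1 of 1, with all 10 of the last at 0 in every knockout library. B cell markers passed higher in 1 and lower in 2 of 5, and interferon response genes lower in 1 of 8 (2 of 9 without library 8). By injection 0 of the 11 disease-associated markers tested passed in limma or edgeR, while DESeq2 passed 1 higher and 2 lower, and 1 was higher and 3 lower at an unadjusted limma p under 0.05. Of the monocyte, border macrophage, neutrophil, B cell, plasmacytoid dendritic cell, choroid plexus, and neuron and glia markers tested there 0 passed with any of the 3 tools, and 1 neuron and glia marker was higher at an unadjusted limma p under 0.05. NK and T cell markers have no entry in that table.

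**Figure D5:**
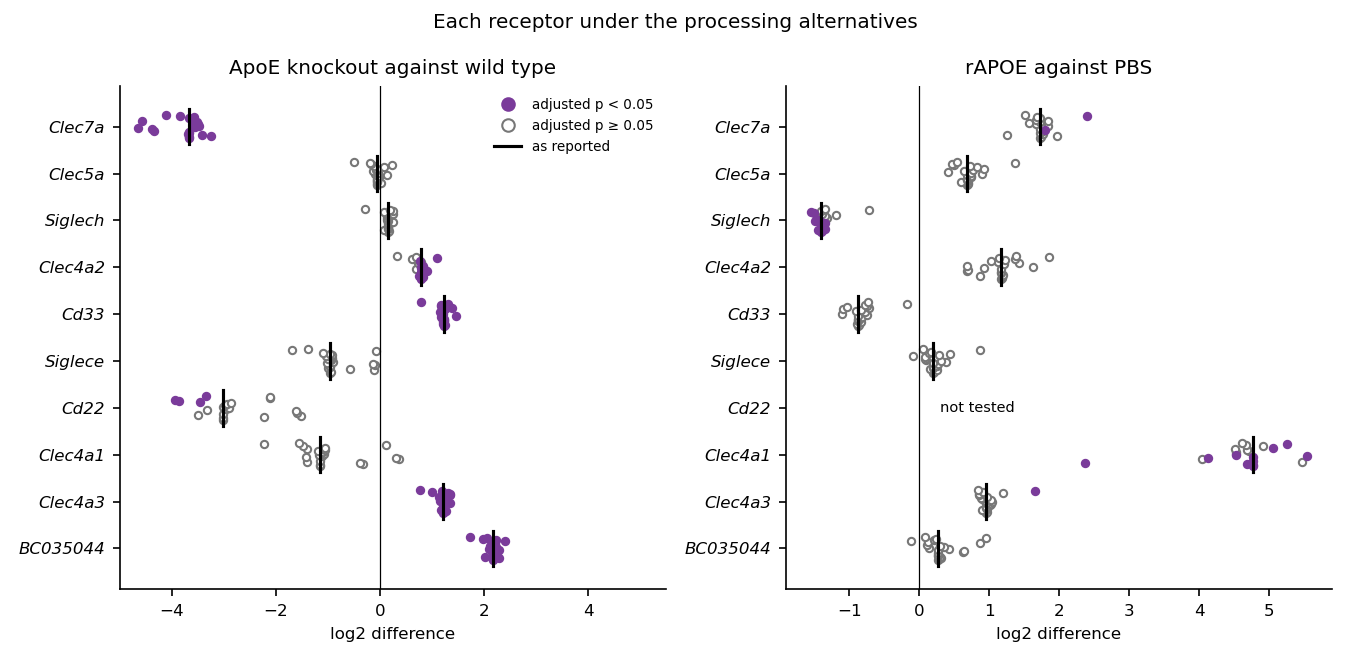
Log2 difference of each receptor under the processing alternatives, by genotype on the left and by injection on the right. Each point is 1 alternative, purple where its adjusted p was under 0.05 and open where it was not, and the black line is the reported value. BC035044, Cd33, Clec4a3 and Clec7a are purple throughout on the left, and no receptor is purple throughout on the right.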

How the data were processed

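Microglial RNA of 21 libraries was read as QuantSeq 3′ FWD tags on an Illumina MiniSeq, per the labels' protocols. The submitters' processing notes name the mouse genome GRCm38.p3, R 3.2.3, Picard 1.8.4, DESeq2 and HTSeq, without their roles. Aligner, annotation and strand setting were not given in the sources used here. What the authors deposited is a signal, the read count of a gene divided by a library factor (normalised count), in 2 tables normalised apart. Values above 0 were whole multiples of a step per library (100% within 0.01), from which reads were recovered. In rAPOE libraries 2 and 3 the step (1.01 and 1.00) is near 1, but only 6.86% and 11.0% of values were whole at a step of exactly 1. Reads carry no molecular identifiers, so floors, set at 3 reads, cover counting error only. Of 18221 genotype entries, 22 named by a date (0.0966% of all values summed) and 120 genes at 0 throughout were left out.

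Differences are log2(normalised count + 1), fitted with limma 3.58.1 in R 4.3.3 (trend, mean of at least 10, Benjamini-Hochberg over all genes tested), a scale that understates low genes. A gene passed at an adjusted p under 0.05. The fit was tested on simulated data. Alternatives were TMM and quantile scaling, pseudocounts of 10 and 0.5, a mean of at least 50 or no filter, edgeR 4.0.16 and DESeq2 1.42.0 on recovered reads, the replicate number as a block, leaving out libraries, and, chosen after seeing the data, scaling to the summed microglia markers. All 10 receptors are named, and of related lists up to 4 passing genes per comparison by adjusted p, of which 1 is not reported here. The receptors and lists were chosen with earlier results of these data known. Promoters are from RefSeq (GRCm38.p6), matched by symbol for all 10 receptors.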

Additional observations from a re-analysis of the deposited data

Results flagged for a closer look

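Each group, of 4 to 7 libraries, was examined for a library whose gap to its nearest neighbour was large against the range of the group (Dixon's test at 95%). Of 40 sets of receptor values 7 met this. The nominal rate is about 1 in 20 for independent sets, but sets that share a library are not independent. The rate over all genes was not computed, so the count is not read as a result about the receptors.

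Wild-type library 8 accounts for 6 of the 7, and it lay outside the other wild-type libraries for 67.6% of all genes tested. It held Clec7a at 7.22 (482 to 760 in the other wild-type libraries), Cd22 at 7.22 (50.4 to 93.9) and Clec4a1 at 10.8 (26.6 to 49.0), each below the others. It held Siglech at 2775 (1699 to 1880), Cd33 at 932 (365 to 529) and Clec5a at 289 (120 to 175), each above the others. All normalised counts of library 8 also summed higher than those of the other wild-type libraries. The part of this in its higher receptor values was not tested. In the remaining set, PBS library 1 held Clec4a1 at 15.7, from 19 reads, while the other PBS libraries held 0 to 0.64.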

How the results depend on the processing

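Clec7a, Cd33, Clec4a3 and BC035044 kept the direction and the call of the genotype comparison under all 21 alternatives. The number passing lower by genotype was 1 and became 2 with scaling to microglia markers, and ranged from 1 to 2 when 1 library was left out. By injection 2 receptors passed, 1 higher and 1 lower. With a pseudocount of 0.5 or a mean of at least 50, 1 passed and 0 were higher. With edgeR 0 passed, 0 higher and 0 lower (3 higher and 2 lower at an unadjusted p under 0.05, as with limma), with DESeq2 2 were higher, and with scaling to microglia markers 3 were higher and 0 lower. Without both libraries numbered 5, 0 passed, 0 higher and 0 lower. Leaving out 1 library gave 0 to 2 passing, 0 to 1 higher and 0 to 1 lower. The causes were not tested, beyond the fewer genes or libraries that some alternatives hold.

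Some differences that did not pass changed sign. Clec5a by genotype became 0.0197 with quantile scaling and 0.13 with the replicate block, and lay between −0.19 and 0.23 when 1 library was left out (above 0 without wild-type library 8 or knockout library 2). Clec4a1 by genotype became 0.36 in edgeR and 0.31 in DESeq2, and lay between −2.22 and 0.12 (above 0 without knockout library 3). Siglech by genotype became −0.28 with scaling to microglia markers. By injection Siglece lay between −0.086 and 0.44 (below 0 without rAPOE library 1) and BC035044 between −0.11 and 0.87 (below 0 without rAPOE library 3).

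Over all genes 535 passed higher and 2061 lower by genotype, against 696 and 1330 with quantile scaling, 119 and 3799 with scaling to microglia markers, 488 and 801 at a mean of at least 50, and 499 and 1159 in edgeR. The median log2 difference of all genes, −0.45, became −0.07 with quantile scaling and −0.90 with microglia scaling. By injection 26 and 8 passed, against 55 and 23 with a pseudocount of 10, 70 and 45 in DESeq2, 221 and 1 with microglia scaling (median 0.66 in place of −0.01), 10 and 1 without both libraries 5, and 36 and 38 without rAPOE library 3. Without rAPOE library 5 the numbers were 13 and 3.

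Same-numbered libraries correlated at −0.03 to 0.02 by genotype and 0.00 to 0.19 by injection, so replicate numbers showed no pairing by genotype. By injection PBS library 4 correlated at 0.185 with rAPOE library 4 and 0.141 with 5, and PBS library 5 at 0.0973 and 0.112. Between libraries 1 to 3 of either group and 4 or 5 of the other, correlations were −0.106 to −0.0113. The injected groups thus share structure that the reported fit does not model. With the replicate block, which by genotype uses libraries 1 to 4 of each group, 4 receptors passed by genotype and 2 by injection, Clec4a2 losing its call (limma adjusted p = 0.154), and 35 and 17 of all genes passed by injection. Low reads limit Cd22, Clec4a1 and Clec7a in the injected libraries.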

Other observations

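Sialic acid is the ligand of the Siglecs, and 23 of 33 genes that make, transfer or remove it were tested by genotype. Of these 4 passed higher and 8 lower in the knockout (limma), with a median of −0.53 beside −0.45 over all genes. St6gal1, which makes the alpha-2,6-linked sialic acid that CD22 prefers, averaged 113 ± 29.8 (SD, n = 7) in the wild type and 225 ± 39.1 (SD, n = 4) in the knockout, and rose by 1.02 log2 units (SE 0.24, limma adjusted p = 0.00684), with no overlap between the groups. With scaling to microglia markers it did not pass (limma adjusted p = 0.107). St6galnac2, a transferase of mucin-type chains, held 147 reads in wild-type and 0 in knockout libraries, an at least 61.9-fold lower mean. St8sia3 and St6galnac5, transferases of gangliosides and other chains, held 151 and 123 reads in wild-type libraries and 0 in the knockout ones, at least 65.1-fold and 53.5-fold lower. Wild-type libraries ranged from 0 to 55.5 for St8sia3 and 0 to 37.4 for St6galnac5, so for both the groups overlap at 0. These fold bounds take 3 reads over the whole knockout group. Choroid plexus and neuron and glia markers were lower in the same knockout libraries, and their part in these sialic acid genes was not tested. By injection 0 of 15 tested passed in limma, edgeR or DESeq2, with a median of −0.30 and 1 higher and 2 lower at an unadjusted limma p under 0.05.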
